A study of Mus musculus with 10 samples.

Results

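The 8 genes described here were Hba-a1 and Hba-a2, which encode the adult alpha chains of hemoglobin, Hbb-bs and Hbb-bt, which encode the adult beta chains, and the erythroid genes Alas2, Slc4a1, Klf1 and Epor. They were taken by symbol, and all 8 were found among the 54532 genes of the count files. Each of the 10 libraries came from the cochlea, the hearing organ of the inner ear, of 1 mouse aged 12 months. All mice were of the mtKeima strain, on a mixed genetic background, and both groups carried its transgene for a mitochondrial fluorescent reporter. The 5 NR mice had drunk water with nicotinamide riboside (NR), a precursor of NAD+, at 7 mg/ml or 24 mM from 2 to 12 months of age, and the 5 Vehicle mice had drunk regular water. The comparison asked how the cochlear transcriptome differed after 10 months of NR. The promoter that drives the reporter is not given in the sources used here, and the labels do not say which mice shared a cage or litter.

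Red cells are made in bone marrow, including that of the bone around the inner ear, and circulating red cells and young reticulocytes reach the cochlea through its vessels. Erythropoietin acts through its receptor Epor on red cell precursors, the transcription factor Klf1 switches on the beta globin gene and other red cell genes, Alas2 starts heme synthesis in these cells, and alpha and beta chains with heme then form hemoglobin. Slc4a1 encodes band 3, the anion exchanger of the red cell membrane. Epor fades as the precursors mature, whereas globin messages persist into reticulocytes. In RNA from whole tissue, fewer cells of a type and less RNA per cell cannot be told apart.

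The members' promoters and the places where the paired globin genes differ are shown first, because the paired genes share most of their sequence and their counts therefore have to be read together. The windows are the 150 bases before the gene's start in RefSeq (GRCm38.p6, the mm10 build), 5′ to 3′ on the gene's strand. Capitals mark motifs searched on both strands. They were the CACCC box that Klf1 binds, searched as CCNCNCCC, and the site of GATA factors, searched as GATAA. The CCAAT box was searched by its own letters. The TATA box was searched as ATATAA. The windows lie at chr11:32283522-32283671 (+, Hba-a1), chr11:32296342-32296491 (+, Hba-a2), chr7:103827929-103828078 (-, Hbb-bs), chr7:103813924-103814073 (-, Hbb-bt), chrX:150547267-150547416 (+, Alas2), chr8:84901832-84901981 (+, Klf1) and chr9:21963577-21963726 (-, Epor). The gene bounds in the count files come from another annotation, whose outermost transcripts reach into some of these windows.
Hba-a1 promoter: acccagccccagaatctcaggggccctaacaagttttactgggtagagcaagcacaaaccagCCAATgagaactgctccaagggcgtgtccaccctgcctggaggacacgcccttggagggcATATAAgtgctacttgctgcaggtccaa
Hba-a2 promoter: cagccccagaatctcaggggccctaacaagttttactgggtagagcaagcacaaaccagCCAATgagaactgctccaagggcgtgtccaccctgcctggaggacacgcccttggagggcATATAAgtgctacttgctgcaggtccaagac
Hbb-bs promoter: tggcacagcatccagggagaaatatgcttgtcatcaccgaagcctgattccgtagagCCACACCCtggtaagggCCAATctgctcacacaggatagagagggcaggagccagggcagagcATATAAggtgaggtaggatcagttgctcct
Hbb-bt promoter: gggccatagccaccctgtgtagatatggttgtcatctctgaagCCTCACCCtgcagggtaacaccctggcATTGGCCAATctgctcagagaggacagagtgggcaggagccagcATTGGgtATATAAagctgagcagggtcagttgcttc
Alas2 promoter: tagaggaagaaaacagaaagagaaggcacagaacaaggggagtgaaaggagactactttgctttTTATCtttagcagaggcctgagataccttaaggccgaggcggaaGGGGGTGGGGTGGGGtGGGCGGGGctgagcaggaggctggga
Klf1 promoter: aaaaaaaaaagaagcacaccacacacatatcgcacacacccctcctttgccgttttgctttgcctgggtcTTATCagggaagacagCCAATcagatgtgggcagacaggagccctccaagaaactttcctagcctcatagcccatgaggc
Epor promoter: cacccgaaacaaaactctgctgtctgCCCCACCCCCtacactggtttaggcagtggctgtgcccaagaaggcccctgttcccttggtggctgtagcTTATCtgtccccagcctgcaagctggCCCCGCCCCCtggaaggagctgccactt
The windows of the alpha pair shared an identical run of 147 of 150 bases, whereas the longest run shared by the beta pair was 14 bases. The TATA box was found in the 4 globin windows, against 5.57% of the 27025 RefSeq promoter windows of this length. The CCAAT box was found in 5 of the 7 windows, those of the globin genes and Klf1, against 25.3% of all promoters. The GATA site was present in the windows of Klf1, Epor and Alas2, against 13.6% of all promoters. The CACCC box was found in 4 of the 7 windows, those of Hbb-bs, Hbb-bt, Alas2 and Epor, against 37.9% of all promoters. In the Epor and Alas2 windows its matches overlapped each other. Its search letters also fit runs without CACCC, such as CCCCGCCC in the Epor window and GGGCGGGG in the Alas2 window. No match says only that the searched letters are not in the window.

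Within each pair, the coding sequences in GENCODE, a gene annotation other than the RefSeq one of the windows, differed at 1 base. In the stretches below the differing base is in capitals and positions count from 1 at the first base of the start codon.
Hba-a1 coding bases 351 to 410: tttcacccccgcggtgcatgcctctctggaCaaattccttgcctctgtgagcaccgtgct
Hba-a2 coding bases 351 to 410: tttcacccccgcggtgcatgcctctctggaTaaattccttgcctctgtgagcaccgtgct
Hbb-bs coding bases 387 to 444: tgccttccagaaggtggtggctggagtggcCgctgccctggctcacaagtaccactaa
Hbb-bt coding bases 387 to 444: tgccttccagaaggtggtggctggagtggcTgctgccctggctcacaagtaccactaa
The alpha pair differed by C381T (Hba-a1 first) over 429 coding bases, and the beta pair by C417T (Hbb-bs first) over 444. Of all stretches of 100 bases in the transcripts, 56.5% of those of Hba-a1 occurred unchanged in Hba-a2 and 74.5% of those of Hba-a2 in Hba-a1. In the beta pair, 62.6% of those of Hbb-bs occurred unchanged in Hbb-bt and 54.8% of those of Hbb-bt in Hbb-bs. For stretches of 150 bases the shares were 48.4 and 65.7% in the alpha pair and 58.7 and 50.7% in the beta pair, in the same order. The study sequenced paired ends, and a read whose 2 ends both lie in such stretches has 2 equally good places in the genome. The default mode of featureCounts, which the study used, leaves out reads placed at several loci. The split of counts within a gene pair is therefore uncertain, and the counts of the 4 globin genes lack such reads. Their number was not determined.

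The 10 libraries held 17060379 to 24419230 counts. Of 18329 genes tested, edgeR called 0 at an adjusted p of 0.05 (smallest 0.224), 1780 (9.71%) at an unadjusted p of 0.05, and DESeq2 called 102 at an adjusted p of 0.05, 0.52% of the 19633 genes to which it gave one. The labels give the mice as female and the study's methods as male. Xist was at 0.0869 to 0.41 CPM (a gene's counts scaled to the total of its library) and the Y-linked genes Ddx3y and Eif2s3y at 64.9 to 83.8 and 55.6 to 68.5 CPM in all 10 libraries, which goes against the label. Of the cochlear markers, Coch was at 2013 to 4258 CPM, whereas Slc26a5, the motor protein of outer hair cells, was at 0.0461 to 5.61 CPM.

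Of the adult globin genes, Hbb-bs (chr7:103826534-103828096) ranked 5, Hba-a1 (chr11:32283511-32284465) 7, Hba-a2 75 and Hbb-bt 2747 among all genes by total counts over the 10 libraries. Hbb-bs stood at 3500, 5474, 3731, 4491 and 6394 CPM in NR replicates 1 to 5 and at 8546, 5517, 3516, 1979 and 5028 CPM in Vehicle replicates 1 to 5. The 5 NR mice lay inside the range of the Vehicle mice, whose highest library, replicate 1, was 4.32-fold their lowest, replicate 4. Hba-a1 stood at 2682, 4005, 2860, 3056 and 4458 CPM in NR and at 5860, 3890, 2483, 1314 and 3926 CPM in Vehicle. It had the same highest and lowest mice. Hba-a2 (chr11:32296489-32297298), the second alpha gene, stood at 584, 913, 689, 710 and 1009 CPM in NR and at 1413, 1093, 607, 254 and 844 CPM in Vehicle. Hbb-bt (chr7:103812524-103813996), the second beta gene, stood at 68.0, 80.4, 69.6, 85.9 and 128 CPM in NR and at 168, 107, 67.2, 25.6 and 95.3 CPM in Vehicle. In each of the 4 genes the 2 groups overlapped fully, with every NR mouse between Vehicle replicates 4 and 1.

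Together the 4 globin genes took 0.683, 1.05, 0.735, 0.834 and 1.20% of all counts in NR replicates 1 to 5, and 1.60, 1.06, 0.667, 0.357 and 0.989% in Vehicle replicates 1 to 5. The means were 0.900% ± 0.218 in NR and 0.935% ± 0.465 in Vehicle (SD, n = 5 each). The exact binomial 95% interval of a share was at most 0.0055 percentage points to either side, which covers counting error only. Hbb-bs made up 50.8 to 55.4% of these counts, Hba-a1 36.6 to 39.7%, Hba-a2 7.11 to 10.3% and Hbb-bt 0.715 to 1.07%. The parts of Hbb-bs and Hba-a1 in the globin counts thus moved little while the total varied. Those of Hba-a2 and Hbb-bt moved more relative to their size. The plot of CPM by gene and group shows these levels.

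**Figure D1:**
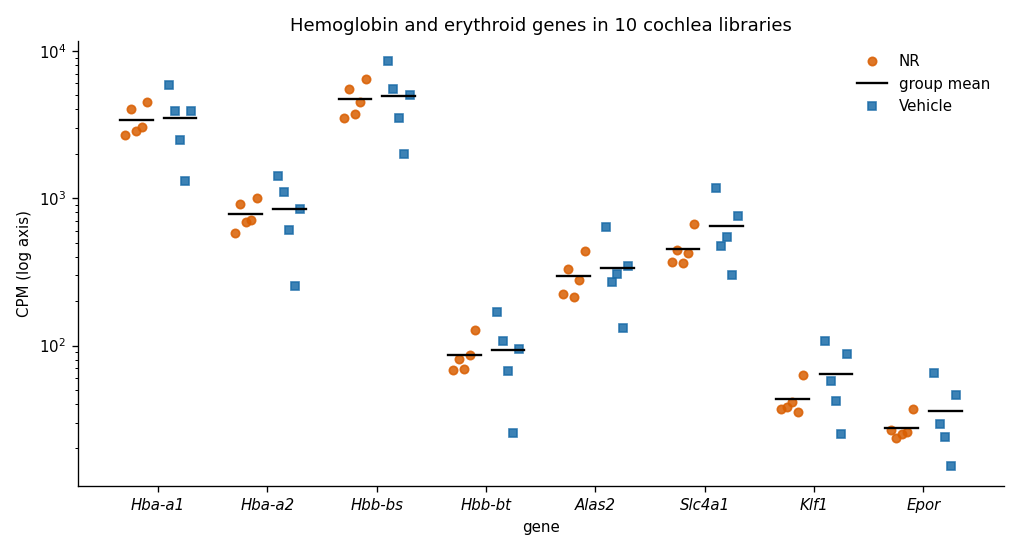
CPM (log axis) of the 8 genes in each library, with NR as circles, Vehicle as squares and the group mean as a black line. In all 8 genes the highest and the lowest of the 10 points are Vehicle mice, and the NR mice lie between them.

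Alas2 (chrX:150547375-150570638), the first enzyme of heme synthesis in red cell precursors, stood at 223, 330, 214, 276 and 441 CPM in NR replicates 1 to 5 and at 634, 271, 304, 131 and 348 CPM in Vehicle replicates 1 to 5. Of its exon bases, 15.5% also belong to Apex2 or Mir3620 on the other strand. The study names a NEBNext Ultra RNA kit and counting in default mode, with no mention of strand, so reads there cannot be assigned to one gene. Slc4a1 (chr11:102348824-102366203) stood at 369, 441, 365, 425 and 667 CPM in NR and at 1166, 477, 546, 302 and 758 CPM in Vehicle. For band 3, 4 of the 5 NR mice were below 4 of the 5 Vehicle mice, and the groups overlapped through NR replicate 5 and Vehicle replicate 4.

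Klf1 (chr8:84901928-84905291) stood at 37.0, 38.4, 41.6, 35.1 and 63.3 CPM in NR and at 108, 57.1, 41.9, 25.1 and 87.2 CPM in Vehicle. NR replicates 1 to 4 were close together, and NR replicate 5 stood above them. Epor (chr9:21958897-21963506) stood at 26.6, 23.7, 25.2, 26.0 and 36.8 CPM in NR and at 65.1, 29.6, 24.0, 15.2 and 46.0 CPM in Vehicle. NR replicate 5 was again the highest of its group, and the Vehicle mice spanned a wider range on both sides.

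Per kilobase of exon, the order of the levels was Hbb-bs, Hba-a1, Hba-a2, then Alas2, Hbb-bt and Slc4a1, then Klf1 and Epor, with means of 6273, 4253, 1217, 132, 127, 113, 34.9 and 16.0 CPM per kb. Most neighbours in this order held it in 10 of 10 libraries. Alas2 was above Hbb-bt in 6 of 10 libraries and Hbb-bt above Slc4a1 in 7 of 10, so that these 3 levels, as counted, overlapped within their spread. As counted, Hba-a2 was 6.97-fold to 14.6-fold the level of Alas2. These levels of the globin genes lack reads that fit both genes of a pair equally well, so their place in the order is uncertain to that extent.

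None of the 8 genes passed the test between NR and Vehicle. In edgeR's quasi-likelihood fit over all genes, 0 of 8 reached an unadjusted p of 0.05 in either direction, where 4.83% of all tested genes were called higher in NR and 4.88% lower. DESeq2 also called 0 of 8, where it called 6.58% of 33153 genes, low-count genes included. All 8 passed the filter on low counts. In 0 of 8 did the groups not overlap, against 1.76% of all genes. The log2 fold changes of NR over Vehicle were -0.06 ± 0.33 (SE) for Hba-a1, -0.14 ± 0.36 for Hba-a2, -0.09 ± 0.33 for Hbb-bs and -0.13 ± 0.38 for Hbb-bt, with unadjusted p from 0.713 to 0.857 in edgeR. The differences of their mean log2 CPM had the opposite sign, 0.08, 0.05, 0.04 and 0.07 (exact two-sided permutation p from 0.841 to 0.937). Their 95% intervals were wide and spanned 0, for Hbb-bs from -0.73 to 0.56. Alas2 had a log2 fold change of -0.21 ± 0.34, at an adjusted p of 0.856 in edgeR (exact permutation p = 0.857 on log2 CPM). The 3 largest differences were those of Klf1, Slc4a1 and Epor. Klf1 had a log2 fold change of -0.59 ± 0.34 (approximate 95% interval -1.25 to 0.07). In edgeR its unadjusted p was 0.108 and its adjusted p = 0.594, and on log2 CPM its exact permutation p was 0.278. Slc4a1 had -0.54 ± 0.31 (-1.15 to 0.07), where edgeR's unadjusted p was 0.109, its adjusted p = 0.597 and the exact permutation p 0.27. Epor had -0.40 ± 0.32 (-1.03 to 0.23), where these values were 0.237, 0.696 and 0.524. The median over the 8 genes was -0.17, and over all genes tested -0.01.

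These values depended on single mice. Without Vehicle replicate 1, the mouse with the highest level of all 8 genes, the log2 fold change was 0.20 for Hba-a1, 0.12 for Hba-a2, 0.20 for Hbb-bs, 0.18 for Hbb-bt and 0.14 for Alas2, all above 0, and -0.33, -0.23 and -0.09 for Klf1, Slc4a1 and Epor. Without Vehicle replicate 4, the mouse with the lowest level of all 8, Klf1 was lower in NR by edgeR at an unadjusted p of 0.013, Slc4a1 at 0.0199 and Epor at 0.0432, and 4.12% of all genes were called lower. Their log2 fold changes were then -0.79, -0.71 and -0.59. Without NR replicate 5, Slc4a1 was lower at an unadjusted p of 0.0494 in edgeR, where 3.44% of all genes were. No member had an adjusted p below 0.518 when any 1 mouse was left out. Hba-a1 also moved to 0.03, 0.01 and 0.01 without NR replicate 1, NR replicate 3 or Vehicle replicate 2, Hbb-bs to 0.02 without NR replicate 1, and Hba-a2 to 0.01 without Vehicle replicate 2. With the 2 alpha genes summed and the 2 beta genes summed before the fit, the log2 fold change was -0.07 for the alpha genes and -0.09 for the beta genes.

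The erythroid genes varied more between mice than most genes. Over the 10 mice the SD of log2 CPM was 0.58 to 0.72 for the 8 genes, which placed them at percentiles 89.3 to 94.4 of all genes tested, whose median SD was 0.20. The SD among Vehicle mice was 1.87-fold to 3.31-fold that among NR mice, against a median of 1.20-fold over all genes. This difference in spread was not tested. Vehicle replicate 1 ranked 1 in all 8 genes and Vehicle replicate 4 ranked 10 in all 8. NR replicate 5 ranked 2 or 3 in all 8. The order of the other mice differed between genes. NR replicate 2 ranked 3 to 6 in the globin genes and Alas2 but 9 in Epor, and Vehicle replicate 5 ranked 2 in Slc4a1, Klf1 and Epor but 4 or 5 in the globin genes.

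**Figure D2:**
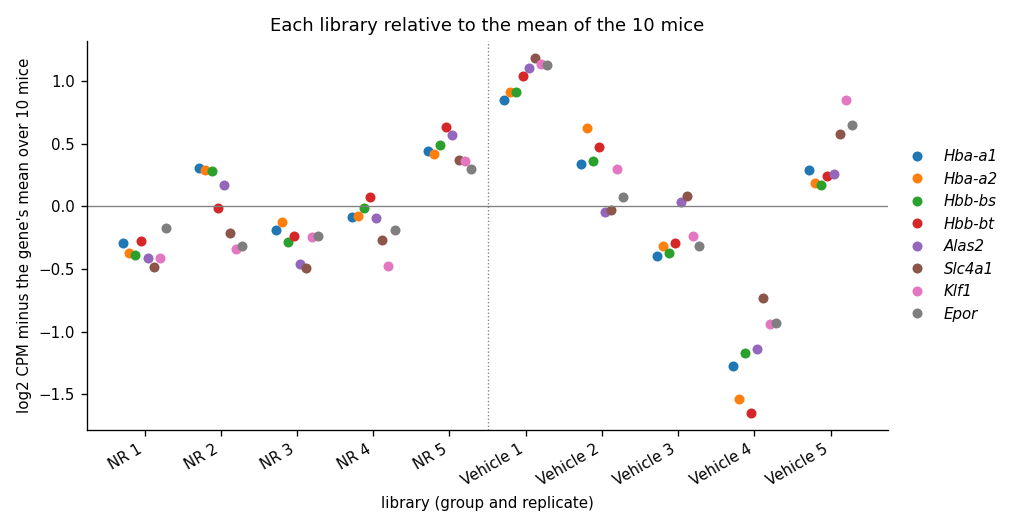
Log2 CPM of each gene in each library minus that gene's mean over the 10 mice, with NR mice left and Vehicle mice right of the dotted line and 1 colour per gene. All 8 genes are highest in Vehicle replicate 1 and lowest in Vehicle replicate 4.

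Ratios of counts within a library do not depend on library size, and 6 of them were compared between the groups. Hba-a2 counts were 21.8, 22.8, 24.1, 23.2 and 22.6% of Hba-a1 counts in NR and 24.1, 28.1, 24.4, 19.3 and 21.5% in Vehicle. The log2 ratio differed by -0.03, which was within the spread between mice (exact two-sided permutation p = 0.794, adjusted over the 6 ratios 0.794). Hbb-bt counts were 1.94, 1.47, 1.86, 1.91 and 2.00% of Hbb-bs counts in NR and 1.97, 1.95, 1.91, 1.29 and 1.90% in Vehicle. NR replicate 2 and Vehicle replicate 4 lay below the other mice, which stood between 1.86 and 2.00%. The groups differed by 0.04 in log2 ratio (exact permutation p = 0.762, adjusted 0.794), and by -0.08 without Vehicle replicate 4 (exact permutation p = 0.603). The alpha ratio differed by 0.04 without Vehicle replicate 2 (exact permutation p = 0.619).

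The 4 other erythroid genes were set against Hbb-bs in the same way, a comparison chosen after their levels had been seen. Klf1 counts were 1.06, 0.701, 1.11, 0.783 and 0.990% of Hbb-bs counts in NR and 1.26, 1.04, 1.19, 1.27 and 1.73% in Vehicle. Of the NR mice, 3 were below every Vehicle mouse and all 5 were below the Vehicle median. All 5 were also below the Vehicle median in the ratios of Hba-a2 to Hba-a1 and of Alas2, Slc4a1 and Epor to Hbb-bs. The ratios to Hbb-bs share its counts and are not independent. In the alpha ratio NR replicate 3, at 24.08%, was only just below the Vehicle median of 24.12%. The log2 ratio of Klf1 to Hbb-bs differed by -0.48 (NR minus Vehicle), with an exact two-sided permutation p of 0.0238 and an adjusted p of 0.119 over the 6 ratios. Slc4a1 counts were 10.6, 8.06, 9.79, 9.46 and 10.4% of Hbb-bs counts in NR and 13.6, 8.65, 15.5, 15.3 and 15.1% in Vehicle. Of the Vehicle mice, 4 were above every NR mouse, and Vehicle replicate 2 lay within the NR range. The difference was -0.47 (exact permutation p = 0.0397, adjusted 0.119). Neither passed the correction. The smallest p that this exact test can give is 0.00794. The difference of Klf1 stayed between -0.56 and -0.37 (exact permutation p from 0.0159 to 0.0556, the highest without Vehicle replicate 5) and that of Slc4a1 between -0.63 and -0.41 (exact permutation p from 0.00794, without Vehicle replicate 2, to 0.0794) when each mouse was left out in turn. Epor had a difference of -0.28 (exact permutation p = 0.175, adjusted 0.349), and -0.39 without Vehicle replicate 2 (exact permutation p = 0.0476). Alas2 had a difference of -0.13 (exact permutation p = 0.421, adjusted 0.631), and -0.24 without Vehicle replicate 2 (exact permutation p = 0.0238).

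**Figure D3:**
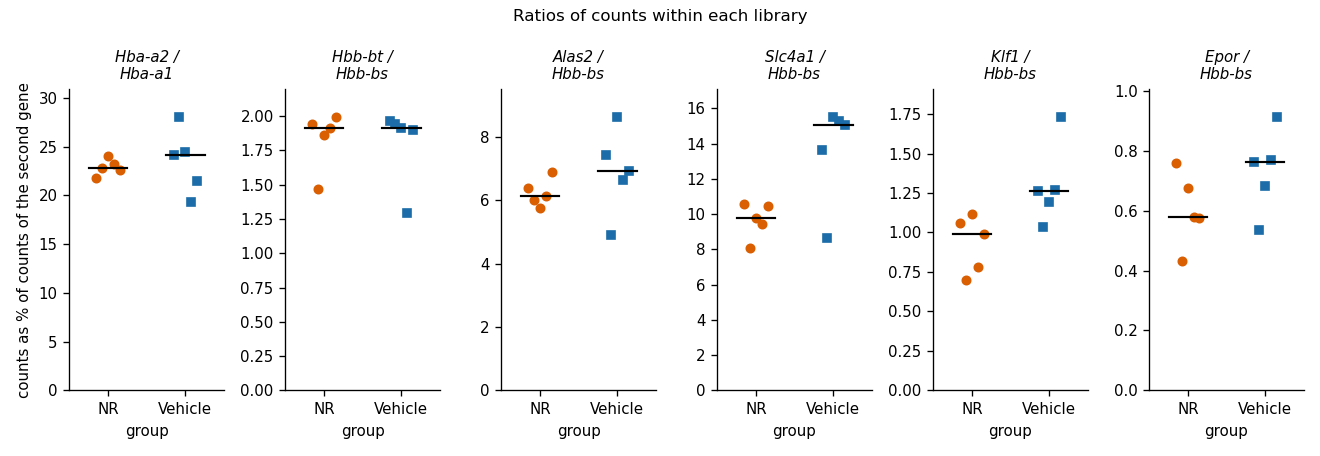
Counts of the first gene as a percentage of the counts of the second gene in each library, with NR as circles, Vehicle as squares and the group median as a black line, on axes that start at 0. The alpha and beta ratios overlap between the groups, and the Slc4a1 ratio is 13.6% or more in 4 of 5 Vehicle mice and at most 10.6% in NR.

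The other genes of the red cell path lay mostly below 0 as well, with few calls. Of 76 listed genes, 69 passed the filter, 63 had a negative and 6 a positive log2 fold change, and 6 were called lower and 0 higher at an unadjusted p of 0.05 in edgeR, that is 6 of 69 against 4.88% of all genes. DESeq2 called 7 lower and 0 higher, where it called 3.08% of 33153 genes lower. These 33153 include genes with few counts that edgeR's filter dropped, so the share is not that of genes like the 69. Neither tool called any of the 69 at an adjusted p of 0.05. Their median log2 fold change was -0.21, against -0.01 over all genes, of which 52.9% were negative. The count depended on single mice. It was 29 of 69 without Vehicle replicate 4, against 4.12% of all genes, 3 without Vehicle replicate 1, and 2 without NR replicate 1, 3 or 4, and 2 with library sizes set to total counts.

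Among the other globin chains, the embryonic genes were near or at 0. Hba-x had 10 counts, Hbb-bh1 3, Hbb-bh2 2 and Hbb-y 1 over all 10 libraries, where a count of 0 in a library allows up to 3 counts. Hbq1b, a theta-like chain, was at 5.23 ± 1.84 CPM in NR and 6.85 ± 3.90 CPM in Vehicle (SD, n = 5), and none of the chains passed the test. Of the 10 genes of heme synthesis beside Alas2, 9 were negative with a median of -0.28, and 2 were called lower. Uros, which closes the porphyrin ring, was at 57.2 ± 4.94 CPM in NR and 68.6 ± 14.6 CPM in Vehicle (log2 fold change -0.28 ± 0.12, adjusted p = 0.499 in edgeR). Cpox, a later oxidase of the path, was at 84.8 ± 16.4 and 119 ± 45.8 CPM (-0.52 ± 0.23, adjusted p = 0.512 in edgeR). Alad, the second enzyme and the most abundant per kb of this list, did not pass, at 199 ± 27.2 CPM in NR and 237 ± 50.7 CPM in Vehicle.

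Of the 10 genes of iron supply and heme turnover, 8 were negative with a median of -0.12, and Fth1, the ferritin heavy chain, was the 1 called lower. It stood at 2275 to 2618 CPM in NR and 2687 to 3351 CPM in Vehicle (-0.32 ± 0.09, adjusted p = 0.42 in edgeR), with no overlap of the groups. Ferritin is made in nearly all cells, and its r with Hbb-bs over the 10 mice was -0.014. Of the 17 tested genes of the red cell membrane, the list of Slc4a1, all 17 were negative with a median of -0.38, and 0 were called by edgeR and 1 by DESeq2. Aqp1, the water channel and the most abundant per kb, stood at 330 ± 46.6 CPM in NR and 364 ± 106 CPM in Vehicle. Without Vehicle replicate 4, 11 of these 17 were called lower in edgeR, where 4.12% of all genes were. Without Vehicle replicate 1, 3 of all 69 pathway genes were called lower. Of the 11 transcription factors listed beside Klf1, all 11 were negative with a median of -0.21, and 0 were called by edgeR and 1 by DESeq2. Ldb1, a widely used cofactor, was the most abundant per kb, at 194 ± 11.6 and 194 ± 13.9 CPM.

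Erythropoietin itself, made in the kidney, had 11 counts (Epo) over all 10 libraries. Of 9 tested genes of erythropoietin signaling beside Epor, 7 were negative with a median of -0.16, and 2 were called lower. Socs2, a feedback inhibitor of cytokine receptors, stood at 43.8 ± 7.58 CPM in NR and 55.8 ± 12.8 CPM in Vehicle (-0.38 ± 0.16, adjusted p = 0.493 in edgeR). Stat5b, a transcription factor downstream of Epor and of many other receptors, stood at 82.6 ± 3.21 and 90.1 ± 10.2 CPM (-0.15 ± 0.07, adjusted p = 0.505 in edgeR). Their r with Hbb-bs was -0.445 and -0.433. Of the 10 red cell enzymes and genes of late maturation, all 10 were negative with a median of -0.25. Car2, a carbonic anhydrase also made in other cells, was the 1 called lower, at 699 ± 100 CPM in NR and 938 ± 159 CPM in Vehicle (-0.45 ± 0.13, adjusted p = 0.423 in edgeR). The r of the 6 called genes with Hbb-bs ranged from -0.445 for Socs2 to 0.718 for Cpox, against a median of 0.77 over the 69 genes and -0.01 over all genes tested.

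**Figure D4:**
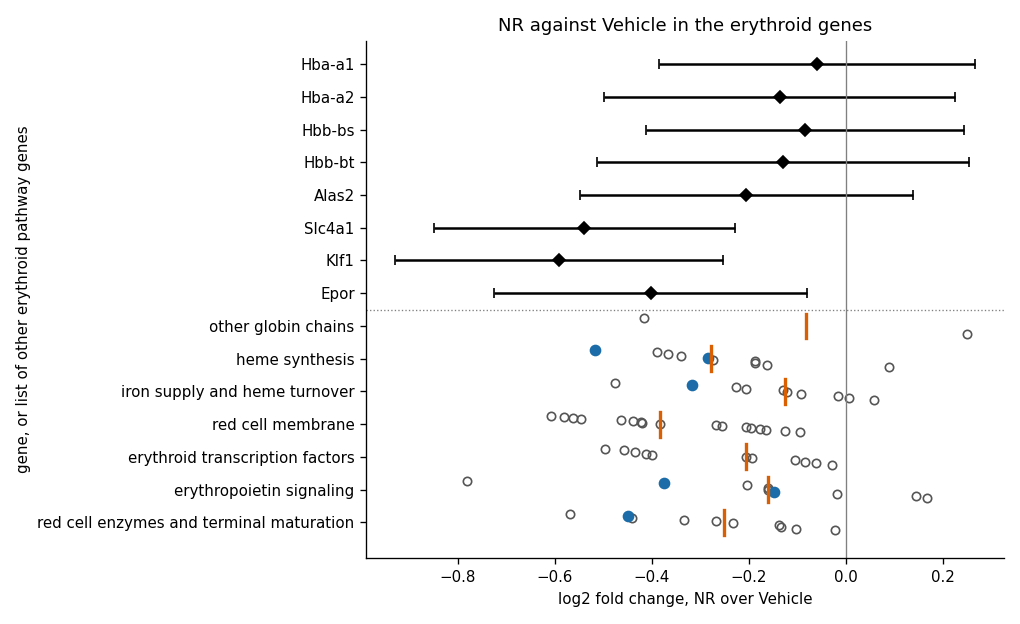
Log2 fold change of NR over Vehicle for the 8 genes (diamonds with SE) and, below the dotted line, for each tested gene of 7 lists of the red cell path (open circles, filled where the unadjusted p was 0.05 or less), with the list median as an orange bar. Most points lie left of 0, and 6 of 69 are filled.

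Across the 10 mice the other members followed Hbb-bs. Pearson's r of log2 CPM with Hbb-bs was 0.991 for Hba-a1, 0.978 for Hba-a2, 0.971 for Hbb-bt, 0.932 for Alas2, 0.852 for Epor, 0.825 for Klf1 and 0.808 for Slc4a1 (permutation p from 2e-05, the smallest the resamples can give, to 0.00276, adjusted over 14 relations from 0.00014 to 0.00483). Spearman's rho was 0.988, 0.988, 0.952, 0.83, 0.685, 0.758 and 0.758 in the same order, with adjusted permutation p of 0.0605 for Epor and at most 0.034 for the others. Without Vehicle replicates 1 and 4, which lay farthest from the median of Hbb-bs, r was 0.977, 0.95 and 0.918 for the globin genes, 0.761 for Alas2, 0.542 for Epor, 0.575 for Klf1 and 0.557 for Slc4a1 over 8 mice. The relations of Epor, Klf1 and Slc4a1 thus rested in part on these 2 mice. Klf1 and Epor followed each other with an r of 0.97, Slc4a1 followed Klf1 with 0.938 and Epor with 0.933, and the lowest r between any 2 of the 8 genes was 0.746, between Hba-a2 and Slc4a1.

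The genes most like the members over the 10 mice were sought among 18321 other genes tested. For Hbb-bs they included Dnajb3 (r = 0.962), Acp1 (0.959) and March2 (0.944). For Klf1 they were Mcm2, a subunit of the helicase of DNA replication (r = 0.986), Rhd, the Rh blood group protein (0.986), and Dlgap5, a mitotic spindle protein (0.983). For Epor they were Pabpc4 (0.994), Cdc6, a licensing factor of DNA replication (0.99), and Ifrd2 (0.989). None of these 9 genes passed the test between the groups, with unadjusted p from 0.165 to 0.814 in edgeR.

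Markers of other cells that the sample could hold were summed up as the mean log2 CPM of fixed lists. The 12 genes of proliferating cells, such as Mki67 at 150 ± 24.2 CPM in NR and 205 ± 105 CPM in Vehicle, followed Hbb-bs with an r of 0.841 (permutation p = 0.00142, adjusted 0.00373), and 0.609 without Vehicle replicates 1 and 4. Between the groups all 12 were negative (median -0.33) and 0 were called. Their mean was highest in Vehicle replicate 1 and lowest in Vehicle replicate 4, as in the erythroid genes. The lists of other marrow and blood cells did not pass the test of relation with Hbb-bs. The r was 0.195 for the 15 neutrophil genes, 0.52 for the 11 B lymphocyte genes and 0.394 for the 10 tested platelet genes, with adjusted permutation p of 0.614, 0.166 and 0.309. Between the groups, 14 of 15 neutrophil genes were positive with a median of 0.44, and Retnlg (0.75 ± 0.32) and Mmp9 (0.86 ± 0.35) were called higher by edgeR, at adjusted p of 0.499 and 0.476. These were 2 of 15 genes, against 4.83% of all genes called higher. S100a9, the most abundant neutrophil gene per kb, stood at 339 to 1143 CPM in NR and 330 to 865 CPM in Vehicle. Thus the erythroid and the neutrophil lists had medians on opposite sides of 0 in the same libraries, and the difference between them was not tested. B lymphocyte genes had a median of -0.18 with 0 called, and platelet genes -0.31 with 0 called, with Jchain and Ppbp as the most abundant per kb.

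Among the solid tissues, vascular endothelium had an r with Hbb-bs of 0.172 and bone of 0.426, with adjusted permutation p of 0.633 and 0.274. The median log2 fold change of the endothelial genes was 0.10, and Egfl7, Erg, Pecam1 and Tie1 were called higher by edgeR at unadjusted p from 0.000454 to 0.0369. That was 4 of 12 genes, against 4.83% of all genes called higher. Egfl7, a protein of vessel walls, stood at 52.9 ± 2.78 CPM in NR and 42.7 ± 2.87 CPM in Vehicle (0.28 ± 0.06, adjusted p = 0.32 in edgeR). DESeq2 called 4 endothelial genes higher at an unadjusted p of 0.05, where it called 6.58% of 33153 genes, low-count genes included, in either direction. It called 1 of them at an adjusted p of 0.05, against 0.52% of the genes to which it gave one. Col1a1, the collagen of bone, stood at 297 to 1554 CPM in NR and 100 to 474 CPM in Vehicle (1.74 ± 0.48, adjusted p = 0.408 in edgeR). It was the 1 of 9 bone genes called, where 4.83% of all genes were called higher. Cochlear genes had an r of -0.567 with Hbb-bs (adjusted permutation p = 0.166), and -0.227 without Vehicle replicates 1 and 4. All 15 cochlear genes were negative between the groups with a median of -0.52, and 8 were called lower by edgeR, against 4.88% of all genes. Otos was among the 8, at 713 ± 184 CPM in NR and 1161 ± 337 CPM in Vehicle. The cochlear list was highest in Vehicle replicate 4, the library with the lowest erythroid genes. The part of these other cells in the erythroid values was not tested.

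**Figure D5:**
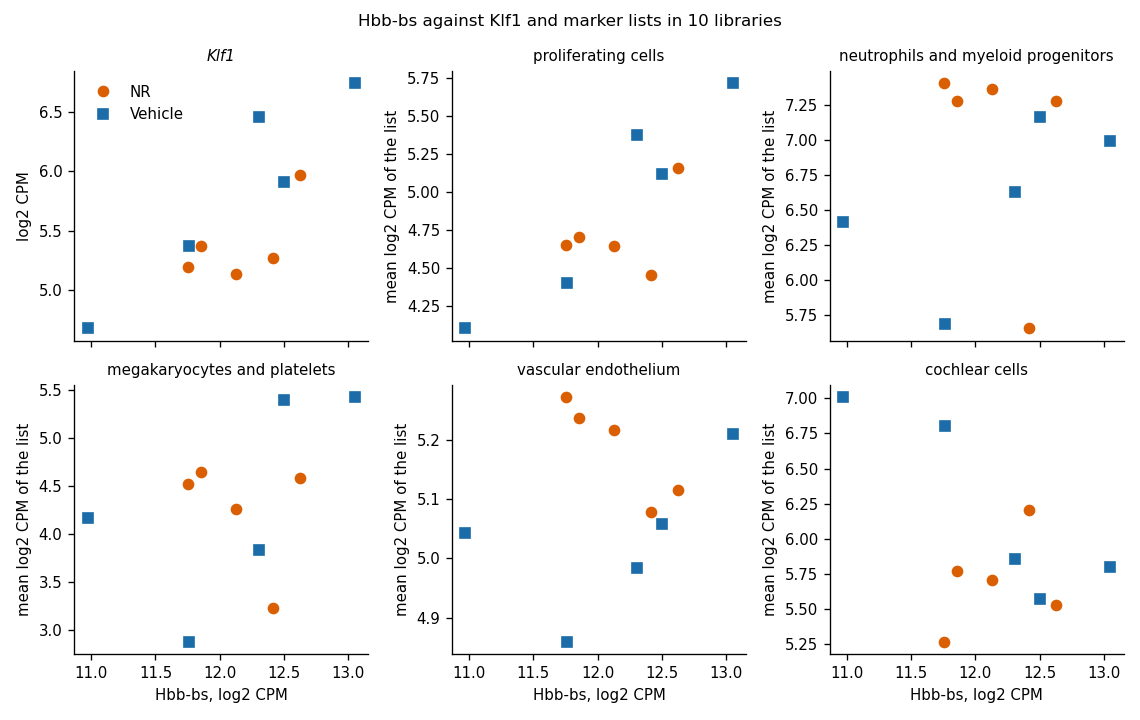
Hbb-bs (log2 CPM, x axis) against Klf1 and against the mean log2 CPM of 5 marker lists (y axes), 1 point per mouse, with NR as circles and Vehicle as squares. Klf1 and the proliferating cells are higher in mice with more Hbb-bs, and the other 4 lists show no relation that passed the test.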

How the data were processed

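RNA was sequenced from 1 cochlea sample of each of 5 NR and 5 Vehicle mice, grouped by the titles in the labels. Per the labels and the study's methods, the authors trimmed reads (fastp), aligned them to mm10 with STAR 2.6.1d and counted them per gene with featureCounts 1.5.0 in default mode, and the deposited counts are raw. The annotation release is not given in the sources used here. Library totals of 17060379 to 24419230 counts set the precision.

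The 8 genes were taken by symbol. The members and gene lists were chosen with earlier results of these data known. All genes kept by filterByExpr were fitted with edgeR 4.0.16 (TMM, quasi-likelihood test, Benjamini-Hochberg adjustment, R 4.3.3), tested on simulated data. Standard errors are the fold change over the root of F, and intervals are 1.96 SE to either side. These intervals are approximate and somewhat narrower than edgeR's F test would give with so few mice. DESeq2 1.42.0 was an alternative, as were other scalings, filters, a block and leaving out each mouse. CPM used total counts, and log2 CPM edgeR's prior count of 2. Ratios were tested by exact permutation over all labelings and relations by 100000 resamples (scipy 1.17.1). Named genes were the members, list genes at an unadjusted p of 0.05 (up to 5 per direction and list) and the most abundant per kb of each list, and the genes with the highest r with Hbb-bs (5), Klf1 (3) and Epor (3). Of the cochlear genes called, 1 is given with its values. Of the 5 genes nearest Hbb-bs, 2 are not reported here. Where the files hold a date in place of a symbol (March2) or an older symbol, the gene was found by its ID or synonym in RefSeq, and Ahsp was not analysed here. Coordinates are those of the files. Shares have exact binomial intervals. No library pair agreed within sampling noise (chi-square per degree of freedom at least 11.0). Where the labels do not say that mice came from separate litters, p-values measure the spread between these mice.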

Additional observations from a re-analysis of the deposited data

Results flagged for a closer look

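In 58 groups of 5 values, covering the members, their ratios and the list means, the gap between the most extreme mouse and its neighbour was divided by the group's range and compared with Dixon's critical value of 0.71, and 9 groups exceeded it. Chance alone flags about 1 in 20 groups, and the 58 are not independent, since many hold the same mice and genes.

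NR replicate 5 stood apart above the other NR mice in Slc4a1 (667 CPM against 441 for the next, gap ratio 0.748), Klf1 (63.3 against 41.6 CPM, 0.772) and Epor (36.8 against 26.6 CPM, 0.778). It also stood above them in the mean log2 CPM of the erythroid transcription factors (5.80 against 5.34, 0.729). For the globin genes and Alas2 it was the highest NR mouse as well, without exceeding the critical value.

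In the log2 ratio of Hbb-bt to Hbb-bs, NR replicate 2 stood apart below its group (-6.09 against -5.75, gap ratio 0.776), and so did Vehicle replicate 4 (-6.28 against -5.72, 0.912). In the log2 ratio of Slc4a1 to Hbb-bs, Vehicle replicate 2 stood apart below the other Vehicle mice (-3.53 against -2.87, 0.779).

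NR replicate 2 stood apart below the other NR mice in the mean log2 CPM of the neutrophil list (5.65 against 7.27, 0.928) and of the platelet list (3.23 against 4.26, 0.731), whereas its Hbb-bs level ranked 4 of 10. The causes of these gaps were not tested.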

How the results depend on the processing

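Over 76 combinations of a member with another normalization, filter, tool, dispersion, block, summed pair or mean, 68 kept the direction and the side of an unadjusted p of 0.05, and the other 8 are the globin genes under the block and by their mean log2 CPM, a setting chosen after seeing the data, which gave 0.077 for Hba-a1, 0.051 for Hba-a2, 0.037 for Hbb-bs and 0.072 for Hbb-bt. With the replicate number as a block, the log2 fold change was 0.080 for Hba-a1, 0.048 for Hba-a2, 0.044 for Hbb-bs and 0.053 for Hbb-bt (p from 0.794 to 0.896 in edgeR). The labels do not say whether the numbers pair the mice. The correlation of same-numbered deviations ran from -0.22 to 0.17, and 1 of 5 numbers matched itself best. With 5 numbers this check cannot exclude a pairing. The block gave 5 pathway genes lower and changed no call of a member.

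With total counts as library sizes, 2 pathway genes were lower in place of 6 (range 4 to 7 in the other settings with all mice). When each mouse was left out, the log2 fold change ran from -0.26 to 0.20 for Hba-a1, -0.36 to 0.12 for Hba-a2, -0.28 to 0.20 for Hbb-bs, -0.36 to 0.18 for Hbb-bt, -0.40 to 0.14 for Alas2, -0.71 to -0.23 for Slc4a1, -0.79 to -0.33 for Klf1 and -0.59 to -0.085 for Epor. The lowest value of each came without Vehicle replicate 4 and the highest without Vehicle replicate 1. Members called lower ran from 0 to 3, pathway genes called lower from 2 to 29, and those called higher stayed at 0 in both. The highest counts, 3 and 29, came without Vehicle replicate 4, where 4.12% of all genes were called lower. With all mice, edgeR called 4.88% of all genes lower and 4.83% higher. The alpha log2 ratio difference ran from -0.094 to 0.041, the beta one from -0.080 to 0.11, and the difference in globin share from -0.18 to 0.13 percentage points. The causes were not tested. A prior count of 0.5 turned the sign of 0 of 14 relations.

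With 5 mice a group and members varying up to 6.58-fold between mice, the approximate 95% intervals of Klf1 and Slc4a1 reached 0.07 on the log2 scale. The data thus do not settle whether they differed. Depth was not the limit for the globin genes, each with at least 588 counts per library. Counts within a globin pair share sequence, and the sex label goes against the Y-linked genes.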
